A study of Rattus norvegicus with 18 samples.

Results

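Of the 28268 full-length transcript isoforms quantified in rat brain and hippocampus, 721 were depleted from polysomes. An isoform was counted as depleted when it reached at least 5 TPM (the share of a library's transcripts that an isoform takes, corrected for length and scaled to the same sum in every library) in both ribosome-free libraries, when its mean polysome level was at most 1/8 of its mean ribosome-free level, and when its mean monosome level was below 2 times the ribosome-free mean. The ribosome-free minimum was met by 9513 isoforms, so that 7.58% of them were depleted and 8792 were not. The members were selected on their measured levels in the 3 gradient fractions, and every fraction value below is therefore a description without a test. The hippocampus and compartment levels and the read length were not used in the selection.

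In polysome profiling, a cytoplasmic lysate is centrifuged through a sucrose gradient, and RNAs separate by the number of ribosomes they carry. RNAs in translation sediment with several ribosomes as polysomes, RNAs with a single ribosome sediment as monosomes, and RNAs without ribosomes, which include non-coding RNAs and mRNAs whose translation is repressed, stay near the top. In neurons, mRNAs held in a repressed state can be carried into dendrites, where they can later be translated.

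Each group held 2 libraries. The ribosome-free, monosome and polysome RNA came from gradients of whole brains, frozen and lysed with cycloheximide after removal of nuclei and membrane debris, and the hippocampus libraries came from whole hippocampus. The CA1 layers called somata and neuropil, rich in cell bodies and in dendrites and axons respectively, were cut by hand from each hippocampal slice. Whether equal replicate numbers share slices was not stated in the methods. The animals were untreated Sprague Dawley rats, and no genotype was given. The methods give males of 4 weeks for the hippocampal slices, and state no age or sex for the whole brains. The layers also hold glial and vascular cells, and in bulk tissue fewer cells of a type and less RNA per cell cannot be told apart. No source says that replicates came from separate animals, so that p-values measure the spread between these libraries, which may be technical.

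The tables hold TPM for isoform identifiers without gene names, so marker genes of the layers were not analysed here. The tables for hippocampus, compartments and fractions were made separately, and levels set side by side across them were not tested. Depth is unknown because TPM keep no read counts. RSEM, which divides reads among isoforms that share sequence, can list an isoform at 0 when its reads went to a similar one. By the labels all RNA was polyA RNA, but for the gradient fractions the methods give a kit for total RNA, and for hippocampus a kit for mRNA. Over the 9513 isoforms, replicates differed on the log2 scale with an SD of 0.48 in ribosome-free, 0.62 in monosome and 0.56 in polysome RNA, and 1.01, 0.96 and 1.22 in hippocampus, somata and neuropil.

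Among the depleted isoforms, the median level was 26.0 and 24.6 TPM in ribosome-free RNA (replicates 1 and 2), 4.08 and 4.57 TPM in monosomes, and 0.33 and 0 TPM in polysomes. In isoforms that met the same minimum and were not depleted, the medians were 21.8 and 22.5, 33.7 and 33.7, and 36.4 and 36.6 TPM. Both sets thus had similar ribosome-free medians, and they parted in every other library.

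**Figure D1:**
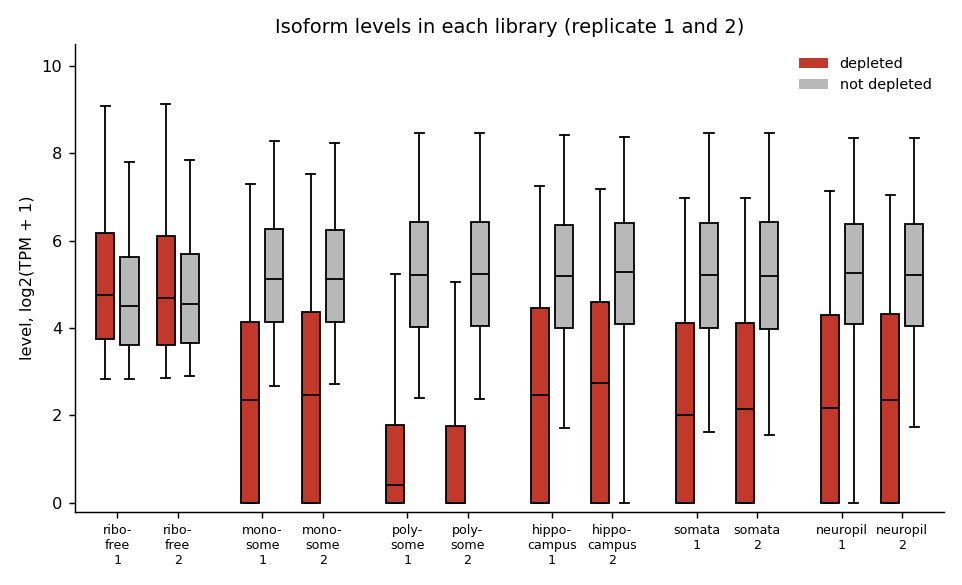
Levels on the log2(TPM + 1) scale in the 12 libraries, with 721 depleted isoforms in red and 8792 not depleted isoforms in grey. Boxes span the quartiles with the median as a line, and whiskers run from the 5th to the 95th percentile. The red medians lie below the grey ones in all libraries but the ribosome-free ones.

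In the polysome fraction, 274 of the 721 isoforms were listed at 0 in both libraries, 160 in 1 library, and 287 in neither. Between 657 and 665 of the 721 isoforms met the limit of 1/8 in any single pairing of a polysome with a ribosome-free library. Both polysome libraries lay below both ribosome-free libraries for all 721, where 29.9% of the 9513 isoforms did so. This order follows from the selection. On the other side of the limit lie isoforms of nearly the same ratio. The 3 members nearest to it had ribosome-free means 8.04, 8.09 and 8.13 times their polysome means, and the 3 isoforms just outside had 7.98, 7.98 and 7.97 times.

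**Figure D2:**
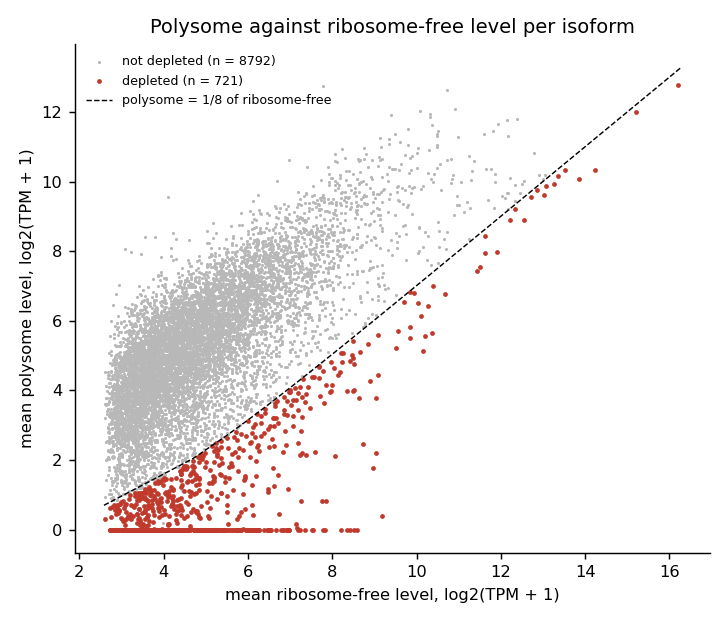
Mean polysome level against mean ribosome-free level of the 9513 isoforms, both as log2(TPM + 1), with depleted isoforms in red and the limit of 1/8 as a dashed line. Members follow the limit up to the highest ribosome-free levels, and the row at 0 holds the 274 members listed at 0 in both polysome libraries.

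TPM are shares within a library, and the libraries were scaled to one another by nothing else. Over the 19666 isoforms whose mean in the fractions reached 1 TPM, the median polysome to ribosome-free log2 ratio was 0.59. This shift was 0.06 after quantile normalization and 0.04 after scaling by median ratios. The median log2 ratio of the 721 isoforms was -3.61 as deposited, -4.04 after quantile normalization and -4.14 after median ratios. When the selection itself was repeated on values scaled by median ratios, 1109 isoforms met it.

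A small number of isoforms made up most of the depleted RNA. The 721 isoforms held 29.9% and 29.6% of all ribosome-free TPM, 10.4% and 11.9% of the monosome TPM, and 2.36% and 2.81% of the polysome TPM. The 39 isoforms with a ribosome-free mean over 500 TPM held 26.2% and 26.0% of the ribosome-free TPM. Without the 10 most abundant isoforms, the other 711 held 9.54% and 9.17%.

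The most abundant was RSN_LD1.109_ccs_115249_595_0_595_595_SUB0_pTNu_31, a read of 595 nt. It stood at 75857 and 74985 TPM in the ribosome-free, 24988 and 25308 TPM in the monosome libraries, and 6013 and 8058 TPM in the polysome libraries. The fractions did not overlap, and the ribosome-free mean was 10.7 times the polysome mean. Its monosome mean was 0.333 of the ribosome-free mean. In hippocampus it stood at 4333 and 5325 TPM.

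The next isoform, RNN_LD1.109_ccs_157220_561_0_561_561_SUB0_uNAp_41 of 561 nt, stood at 37066 and 39171 TPM in ribosome-free, 13523 and 14257 TPM in monosome RNA, and 3335 and 4852 TPM in polysome RNA. In hippocampus it was at only 304 and 314 TPM. The order of the fractions was the same as for the leading isoform, while the hippocampus level was far lower relative to the ribosome-free one.

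The following one, RNN_LD1.108_ccs_63356_480_0_480_480_SUB0_pNAp_37 of 480 nt, kept more of its level in monosomes. It was listed at 19069 and 19418 TPM in ribosome-free, 11280 and 15068 TPM in monosome RNA, and 1194 and 1407 TPM in polysome RNA. Its monosome mean was 0.685 of the ribosome-free mean. The 12 most abundant members measured between 423 and 1490 nt, and their monosome means were between 0.333 and 0.685 of their ribosome-free means.

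Genes could be given to 9 of the 721 isoforms, through the study's lists of isoforms whose predicted protein lacks or gains a signal peptide. A signal peptide directs a nascent protein into the secretory pathway. The lists name 516 isoforms that could be matched, and the study chose them among isoforms it predicted as translated with the help of these libraries, so their counts are not independent of the fractions. Of the 376 isoforms listed for a lost signal peptide, 168 met the ribosome-free minimum and 8 were depleted. Of the 140 listed for a gained one, 49 met the minimum and 1 was depleted, and of 27 isoforms listed with conserved unannotated reading frames, 18 met it and 0 were depleted. These shares lie below the 7.58% of all 9513 isoforms, and the lists' own selection cannot be told apart from this.

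Metrn, which encodes the secreted protein meteorin, was the most abundant of the 9. Its listed isoform of 916 nt stood at 1376 and 1094 TPM in ribosome-free, 423 and 508 TPM in monosome RNA, and 74.8 and 94.8 TPM in polysome RNA. The fractions were ordered in steps without overlap, and the ribosome-free mean was 14.6 times the polysome mean. In hippocampus it was at 179 and 101 TPM.

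Ntrk2 encodes TrkB, the receptor of brain-derived neurotrophic factor. Its listed isoform of 1825 nt stood at 127 and 108 TPM in ribosome-free RNA, 3.40 and 11.6 TPM in monosome RNA, and 2.72 and 6.14 TPM in polysome RNA. Monosome and polysome levels overlapped, and both lay far below the ribosome-free ones, whose mean was 15.7 times the monosome mean. The hippocampus libraries held 20.8 and 29.4 TPM.

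For Hars2, the histidyl-tRNA synthetase of mitochondria, the isoform of 3086 nt was at 34.1 and 45.6 TPM in ribosome-free RNA, at 0 and 2.11 TPM in polysome RNA, and listed at 0 in both monosome and both hippocampus libraries. Its ribosome-free libraries lay above the other 4 libraries of the gradient.

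Grik1 encodes a subunit of kainate receptors for glutamate. Its isoform of 3065 nt was at 24.0 and 17.3 TPM in ribosome-free RNA, at 0.95 and 0 TPM in polysome RNA, and at 0 in both monosome libraries. Another listed Grik1 isoform, of 6343 nt, was not depleted, with 7.96 and 11.6 TPM in ribosome-free, 13.8 and 13.2 TPM in monosome RNA, and 19.1 and 16.7 TPM in polysome RNA. The depleted isoform was thus highest in ribosome-free RNA, and the longer one in polysome RNA.

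Itfg1 had another listed isoform whose place could not be settled. The depleted one, of 3404 nt, was at 13.5 and 24.6 TPM in ribosome-free RNA, at 0 in both monosome libraries and at 0 and 0.30 TPM in polysome RNA. The other, of 3571 nt, was at 88.1 and 91.4 TPM in ribosome-free and 61.7 and 77.2 TPM in monosome RNA, but its polysome replicates were at 77.2 and 0.30 TPM. It was not depleted by the mean, which rests on polysome replicate 1, and its level in that library is the same to 2 decimals as in monosome replicate 2. In hippocampus the isoform of 3571 nt held 226 and 268 TPM, and the depleted one 0 and 15.2 TPM.

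For Gpr108, the depleted isoform of 2697 nt was at 16.5 and 18.0 TPM in ribosome-free, 2.87 and 1.90 TPM in monosome RNA, and 1.47 and 0.28 TPM in polysome RNA. The other 6 listed isoforms did not meet the ribosome-free minimum. One of them, of 2109 nt, was singled out after its values were seen. It was listed at 0 in both ribosome-free libraries, with monosome levels of 13.3 and 3.61 TPM and polysome levels of 9.89 and 13.4 TPM. Both isoforms were found at similar levels in hippocampus, at 4.40 and 6.49 TPM for the depleted isoform and 4.18 and 9.58 TPM for the other.

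Arrdc1, an arrestin domain protein that takes part in the release of vesicles from the cell surface, was the single member listed for a gained signal peptide. Its isoform of 2211 nt was at 23.4 and 17.4 TPM in ribosome-free, 5.23 and 4.17 TPM in monosome RNA, and 0.53 and 0.59 TPM in polysome RNA, without overlap between fractions.

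The isoform of Adam9, a membrane-anchored metalloprotease, measured 3578 nt and was at 15.2 and 22.3 TPM in ribosome-free, 7.16 and 3.74 TPM in monosome RNA, and 0 and 0.73 TPM in polysome RNA. The isoform of Lipa, the lysosomal acid lipase, measured 3024 nt and was close to the ribosome-free minimum at 6.38 and 5.82 TPM, with 0.73 and 0 TPM in monosome RNA and 0 in both polysome libraries. In hippocampus, Lipa stood above its ribosome-free level, at 12.1 and 13.1 TPM, while Adam9 stood below it, at 4.84 and 9.07 TPM.

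Monosome levels varied widely among members. The median monosome to ribosome-free log2 ratio was -2.14 over the 721 isoforms and 0.47 over the 8792 that were not depleted. Both monosome libraries lay below both ribosome-free libraries in 629 members (87.2%), where 25.7% of the 9513 isoforms did so, and above them in 14 members, where 53.9% did so. In 149 members both monosome libraries were listed at 0, in 152 the monosome mean was above 0 and at most 1/8 of the ribosome-free mean, in 248 it was between 1/8 and 1/2, in 139 between 1/2 and 1, and in 33 between 1 and 2 times. The last number was 11 after quantile normalization and 7 after median ratios, which moved the median monosome to ribosome-free log2 ratio of the 19666 isoforms from 0.65 to 0.05 and 0.05. For the 721 members kept as selected, the median ratio of -2.14 became -2.85 after quantile normalization and -2.75 after median ratios.

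**Figure D3:**
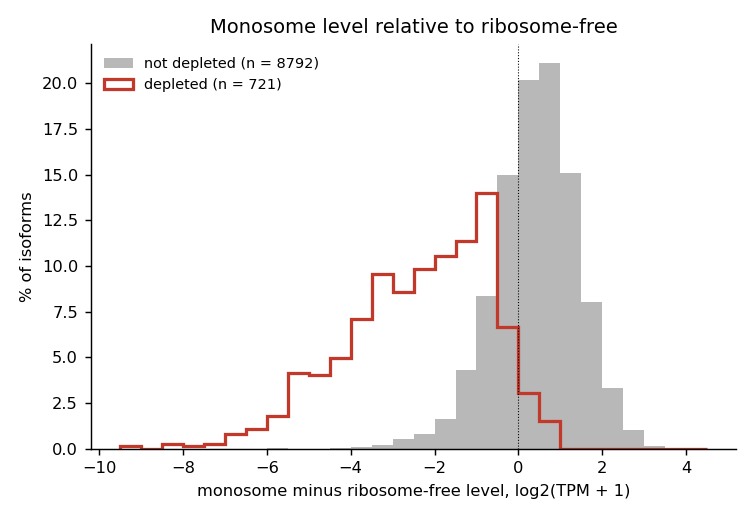
Difference between the mean monosome and mean ribosome-free level on the log2(TPM + 1) scale, as a percentage of 721 depleted isoforms (red line) and of 8792 not depleted isoforms (grey bars). The depleted isoforms spread from 0.90 down to -9.18, around a median of -2.14 against 0.47.

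Relative to polysomes, 407 members (56.4%) had both monosome libraries above both polysome libraries, where 36.7% of the 9513 isoforms did so, and 1 member had them below, where 40.3% did so. All 3 fractions were ordered without overlap, from ribosome-free over monosome to polysome, in 322 members (44.7%), where 8.26% did so. Since the selection holds the polysome level down, these shares carry no test.

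At the upper end of the monosome levels was RNN_LD4.105_ccs_108311_2095_0_2095_2095_SUB0_pNAp_26 of 2095 nt. It stood at 12.7 and 8.71 TPM in ribosome-free, 11.2 and 30.4 TPM in monosome RNA, and 2.36 and 0 TPM in polysome RNA. The monosome mean was 1.95 times the ribosome-free mean, but the libraries of the 2 fractions overlapped. The isoform was at 0 in the hippocampus, somata and neuropil libraries. A steadier case was RSN_LD3.109_sub_136659_4978_0_2181_2181_SUB0_uNAp_25 of 2181 nt, at 21.8 and 30.2 TPM in ribosome-free and 42.8 and 50.7 TPM in monosome RNA, and at 0 in both polysome libraries. Here both monosome libraries lay above both ribosome-free ones.

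Depleted isoforms were spread over the whole range of read lengths. Their median read length was 1909 nt, with quartiles at 1129 and 2739 nt and extremes of 398 and 20032 nt, against a median of 2074 nt in isoforms that were not depleted. The share of depleted isoforms was highest among the shortest, at 69 of 407 isoforms (17.0%) of up to 700 nt. It was 69 of 706 (9.77%) above 700 and up to 1000 nt, and 156 of 1902 (8.20%) above 1000 and up to 1500 nt. From there the share had no steady order. It was 5.13% up to 2000 nt, 7.85% up to 3000 nt, 7.09% up to 4000 nt and 3.11% above 4000 nt.

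Short members were few in number but held most of the amount. The 138 members of up to 1000 nt (19.1%) carried 23.9% and 23.7% of ribosome-free TPM, and the 583 longer members 6.08% and 5.91%. Short members also kept more in the other fractions. Both polysome libraries were at 0 in 8 of 69 members of up to 700 nt (11.6%) and in 101 of 217 members above 2000 and up to 3000 nt (46.5%). The median monosome to ribosome-free log2 ratio was -1.07 in the former and -2.75 in the latter. Across all 721 members, Spearman's rho between read length and this ratio was -0.31, whereas it was 0.18 across the 8792 other isoforms. These are correlations across isoforms of the same libraries, given as a description. Short members were also more abundant, with medians of 56.0 TPM in ribosome-free RNA up to 700 nt and 20.4 TPM above 2000 and up to 3000 nt. The part of abundance in these differences was not tested.

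The longest member by read length was RNN_LD2.101_sub_24133_20032_0_20032_20032_SUB1_pNAp_24, a read of 20032 nt. It was seen in ribosome-free RNA alone, at 9.61 and 15.5 TPM, and at 0 in the other 10 libraries. The shortest, RNN_LD1.104_ccs_117017_398_0_398_398_SUB0_pTNp_37 of 398 nt, was at 8.45 and 15.0 TPM in ribosome-free, 6.97 and 10.6 TPM in monosome RNA, and 1.04 and 1.21 TPM in polysome RNA. Its monosome and ribosome-free levels overlapped. Reads of both types were present in like shares, since identifiers marked ccs made up 73.8% of members and 72.5% of the isoforms that were not depleted.

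In whole hippocampus, most depleted isoforms were scarce. Their median over the mean of both libraries was 5.67 TPM, against 36.9 TPM in isoforms that were not depleted. Both libraries were listed at 0 in 149 members (20.7%), against 2.06% of isoforms that were not depleted. When the selection was made without ribosome-free replicate 2, the median became 3.64 TPM. The hippocampus values come from another tissue, another table and, by the methods, another library kit, and were not tested against the fractions.

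The share of depleted isoforms was lower at higher hippocampus levels. It was 149 of 330 isoforms (45.2%) listed at 0 in both hippocampus libraries, 45 of 103 (43.7%) with a mean above 0 and up to 1 TPM, and 250 of 1396 (17.9%) above 1 and up to 10 TPM. Above 10 and up to 50 TPM it was 4.18%, up to 100 TPM 3.37%, and over 100 TPM 2.58%. Members listed at 0 in hippocampus were at 0 in monosome and polysome RNA more often than members as a whole. Of these 149, 75 were at 0 in both monosome libraries and 103 at 0 in both polysome libraries. Of all 721 members, 149 were at 0 in both monosome libraries and 274 in both polysome libraries. Of the 181 not depleted isoforms at 0 in hippocampus, 4 and 1 were so. The selection itself holds the polysome level of members down.

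**Figure D4:**
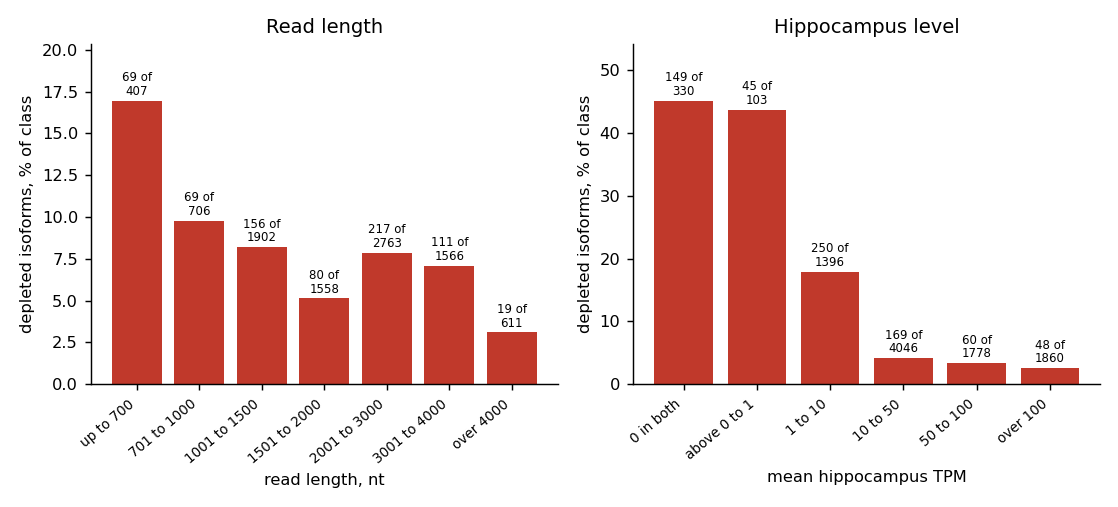
Share of depleted isoforms among the isoforms with at least 5 TPM in both ribosome-free libraries, by read length (left) and by mean hippocampus level (right), with the numbers of isoforms above each bar. The share was 17.0% in the shortest class and 45.2% in isoforms listed at 0 in hippocampus.

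The replicates of hippocampus also differed more in members than elsewhere. On the log2 scale, their difference had an SD of 1.59 in the 528 of 721 members whose hippocampus mean reached 1 TPM. It was 1.01 in the 9081 of the 9513 isoforms that did so. In the monosome and polysome fractions it was 1.36 and 1.19 in the 513 and 282 members with a mean of at least 1 TPM there, against 0.62 and 0.56. Ribosome-free replicates were closer, with 0.60 against 0.48. Members were also lower in hippocampus, monosome and polysome RNA. The parts of the selection and of these lower levels in the spread were not tested.

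A few members were abundant in hippocampus. Of the 721, 48 had a mean over 100 TPM. RSN_LD4.108_ccs_117507_2891_0_2891_2891_SUB0_pTNp_18, of 2891 nt, was at 3048 and 2100 TPM in hippocampus, more than in ribosome-free RNA, where it was at 946 and 881 TPM. Its monosome levels were 98.8 and 97.3 TPM and its polysome levels 57.7 and 53.1 TPM. It was the third most abundant member in hippocampus, after the isoforms of 595 and 480 nt, and unlike these it was low in monosomes, at 0.107 of the ribosome-free mean.

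Between the CA1 layers, no depleted isoform differed at an adjusted p under 0.05. The two-sided limma test on log2(TPM + 1) covered the 20393 isoforms whose mean over the 4 compartment libraries reached 1 TPM, of which 530 were members, and p-values were adjusted over all of them by the method of Benjamini and Hochberg. Of all 20393, 0 were called (0%), and the smallest adjusted p was 0.179. The paper did report isoforms significantly enriched in either layer, within a narrower set of neuronal genes with several isoforms. Its methods do not state the test used, so its calls and those given here are not directly comparable. At an unadjusted p under 0.05, 61 of the 530 members were higher in neuropil (11.5%, against 7.57% of all isoforms tested) and 23 were higher in somata (4.34%, against 7.26%). Among the 9227 tested isoforms of the same ribosome-free minimum, the shares were 10.3% in each direction, so that the share of members higher in neuropil was near this background and the share higher in somata lay below it. This total of 84 members (15.8%, against 14.8% of all isoforms tested) became 136 without neuropil replicate 2, with 86 higher in neuropil and 50 in somata. In that fit the share was 26.5% of the members tested and 24.0% of all isoforms tested. The other 191 members did not reach the minimum, and 139 of the 721 were at 0 in all 4 libraries.

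Over all 721 members, both neuropil libraries lay above both somata libraries in 150 (20.8%), against 24.9% of the 9513 isoforms of the same ribosome-free minimum. Both somata libraries lay above both neuropil libraries in 66 (9.15%), against 27.4%. Libraries overlapped in the other 505, among them the 139 members at 0 in all 4 libraries. Among isoforms tested, neuropil lay above in 28.3% of the 530 members and in 25.6% of the 9227 isoforms of this minimum. Somata lay above in 12.1% and 28.2%. Among members, neuropil stood higher more often than somata, whereas the 9513 isoforms divided about evenly. The median difference was 0 over the 721 members and 0.28 log2 units over the 530 that were tested. It was 0.01 over all isoforms tested and -0.04 over the 9227 of the same ribosome-free minimum. Members spread more between replicates. In the 497 members with a neuropil mean of at least 1 TPM, the SD of the log2 difference was 2.06. In the 478 with a somata mean of at least 1 TPM, it was 1.74. Those of the 9513 isoforms that reached the same means had SDs of 1.22 and 0.96. Members were also lower in both layers, and the part of level in this spread was not tested.

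The share of members higher in neuropil was greater at higher ribosome-free levels. Of the 39 members over 500 TPM, 34 (87.2%) had both neuropil libraries above both somata libraries and 1 (2.56%) had them below, while among the 182 other isoforms over 500 TPM these shares were 36.8% and 35.2%. Quantile normalization of the compartments gave 33 and 1 of the 39 members, and median ratios 34 and 1. For members of over 500 TPM and up to 1000 nt, 22 of 23 lay higher in neuropil and 0 lower, and for the 87 other isoforms of this length and level the shares were 33.3% and 37.9%. From 100 to 500 TPM, 35 of 99 members (35.4%) lay higher in neuropil and 14 (14.1%) lower, against 23.4% and 41.2% of the other isoforms at this level. Below 100 TPM, members were under the other isoforms in both directions, where isoforms at 0 in all 4 libraries count as overlapping. In the classes of this range, between 9.24% and 17.0% of members lay higher in neuropil, against 23.2% to 25.8% of the others, and between 4.20% and 11% of members lay lower, against 21.6% to 37.7%. Over the 39 members, the ratio of the neuropil mean to the somata mean ran from 0 to 3.59, with a median of 1.42. As a share of the library, the 721 members held 5.17% and 4.62% of TPM in neuropil and 3.82% and 3.52% in somata. Most of this gap lay in the 39 members over 500 TPM, and the other 682 held 0.98% and 0.94% in neuropil and 0.94% and 0.87% in somata.

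**Figure D5:**
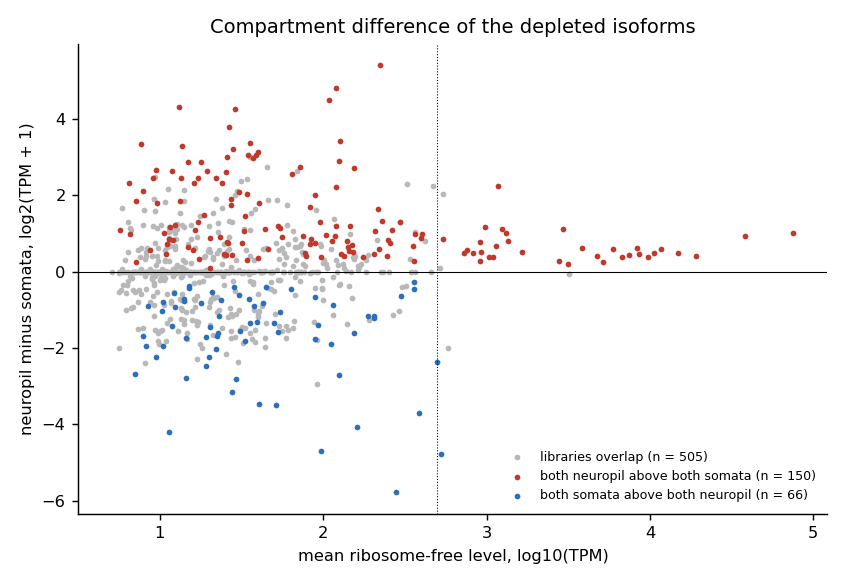
Neuropil minus somata level on the log2(TPM + 1) scale for the 721 depleted isoforms against the log10 of their mean ribosome-free TPM, with the dotted line at 500 TPM. Red points have both neuropil libraries above both somata libraries (150 isoforms), blue points the reverse (66), and grey points overlap (505). To the right of the line, 34 of 39 isoforms are red.

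The leading isoform of 595 nt was at 1566 and 1734 TPM in somata and 3304 and 3364 TPM in neuropil. The layers did not overlap, and the log2 fold change was 1.02 with an SE of 0.10 (limma, adjusted p = 0.179). The isoform of 561 nt was at 552 and 569 TPM in somata and 1078 and 1080 TPM in neuropil, a log2 fold change of 0.94 with an SE of 0.09 (adjusted p = 0.179). The isoform of 480 nt was at 4334 and 3778 TPM in somata and 5493 and 5354 TPM in neuropil, a smaller difference of 0.42 with an SE of 0.11 (adjusted p = 0.252). All 12 most abundant members were higher in both neuropil libraries than in both somata libraries. Their log2 fold changes were between 0.37 and 1.02, and none passed the threshold.

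Of the members with gene names, Metrn had the clearest layer difference, with 133 and 154 TPM in somata and 305 and 316 TPM in neuropil. The layers did not overlap, and the log2 fold change was 1.11 with an SE of 0.13 (limma, adjusted p = 0.179). Gpr108 was at 3.83 and 2.07 TPM in somata and 9.10 and 7.91 TPM in neuropil, without overlap (log2 fold change 1.30, SE 0.57, adjusted p = 0.400). Ntrk2 was at 6.78 and 7.24 TPM in somata and 22.1 and 9.31 TPM in neuropil. Both neuropil libraries were higher, but they lay further from each other than the layer means did (log2 fold change 0.95, SE 0.54, adjusted p = 0.514). Adam9 was at 13.8 and 15.0 TPM in somata and 26.2 and 13.5 TPM in neuropil, with overlap. Arrdc1 was at 4.99 and 4.05 TPM in somata and 3.47 and 5.74 TPM in neuropil, also with overlap. Itfg1 was at 0 in all 4 libraries, Hars2 was above 0 in somata replicate 1 alone, and the libraries of Grik1 and Lipa overlapped.

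The 2 widest layer differences in each direction, among members of at least 10 TPM without overlap, lay in isoforms listed at 0 in one layer. RSN_LD2.105_sub_129737_1976_2347_3336_989_SUB0_uNAp_15, of 989 nt, was at 0 in both somata libraries and at 30.0 and 56.7 TPM in neuropil. In the fractions it stood at 220 and 225 TPM in ribosome-free, 57.0 and 60.8 TPM in monosome RNA, and 8.08 and 14.9 TPM in polysome RNA. Its difference had the same adjusted p of 0.179 (limma) as the leading isoforms. RNN_LD3.109_ccs_40517_1414_0_1414_1414_SUB0_pNAp_30, of 1414 nt, was at 0 in both somata libraries and at 51.2 and 14.2 TPM in neuropil (adjusted p = 0.184). Its neuropil replicates were far apart, as were its ribosome-free replicates at 44.5 and 197 TPM.

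In the opposite direction, RNN_LD1.106_ccs_100020_576_0_576_576_SUB0_pNAp_27, of 576 nt, was at 62.4 and 46.7 TPM in somata and at 0 in both neuropil libraries (limma, adjusted p = 0.179). It was present in hippocampus at 128 and 119 TPM and in ribosome-free RNA at 225 and 333 TPM. RNN_LD3.101_ccs_93120_2118_0_2118_2118_SUB0_pTNp_25, of 2118 nt, was at 32.8 and 20.8 TPM in somata and at 0 in both neuropil libraries (adjusted p = 0.179). It was the single member over 500 TPM with both somata libraries above both neuropil libraries. It stood at 519 and 533 TPM in ribosome-free RNA, and its monosome replicates were far apart at 1.43 and 85.8 TPM. No fold is given for these isoforms, since a value of 0 is an estimate of RSEM and not a count.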

How the data were processed

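The authors removed adapters with flexbar, mapped reads to the full-length transcripts with Bowtie 2 and estimated isoform levels with RSEM. They deposited TPM in 3 tables, for hippocampus, compartments and fractions, with 2 decimals and without pooling replicates. The labels' processing notes name rn6, RSEM and TopHat2. Versions used for this step are not given in the sources used here, and the methods state them for Bowtie 2 and TopHat2 in other kinds of library. TPM are divided by an effective length, which weighs most on short isoforms. All 12 value columns were matched to samples by group and replicate number, and 6 footprinting libraries were not analysed here.

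Members were found by the stated limits on the deposited TPM. Neuropil was compared with somata by limma 3.58.1 in R 4.3.3 (lmFit, eBayes with trend) on log2(TPM + 1), for isoforms whose mean reached 1 TPM. Fractions, which selected the members, were not tested. On simulated compartments with 20393 isoforms and normal noise, 113 of 200 isoforms shifted by 3 log2 units were recovered with 10 false calls. Without a shift, 0 were called. The shifted isoforms were drawn from those of about 10 TPM or more, so the recovery does not describe weaker ones. Members had medians of 3.74 TPM in somata and 4.67 TPM in neuropil. Python 3.11.15, pandas 2.3.3 and matplotlib 3.10.9 made counts and plots. Read lengths come from the identifiers, and gene symbols from the study's lists. The isoforms named were the 9 with a gene, and those highest or lowest in ribosome-free, hippocampus, monosome or compartment level, in length, or nearest to the limit of 1/8. Other listed isoforms of the same genes were added after their values were seen. The members, lists and alternatives were chosen with earlier results of these data known. Alternatives changed the limits, pseudocount, filter, scaling, prior variance, replicate block and each library left out.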

Additional observations from a re-analysis of the deposited data

How the results depend on the processing

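No isoform was called between the layers under any of the 12 alternatives of the fit, in which between 2206 and 4831 isoforms had an unadjusted p under 0.05. Members with an unadjusted p under 0.05 numbered 54 (10.2%, against 11.7% of all isoforms tested) with a constant prior variance in place of 84, and between 67 and 136 with a library left out (12.9% to 26.5%, against 10.9% to 24.0% of all). The deviations of equal replicate numbers in the layers had a correlation of 0.03, which cannot show whether the layers were paired. The fit with the replicate block had 96 members with an unadjusted p under 0.05 (18.1%, against 13.2% of all) and 0 calls. With a limit of 1/4, 1167 isoforms were depleted, with medians of 1650 nt, 7.82 TPM in hippocampus and -1.46 for the monosome to ribosome-free log2 ratio. With 1/16 the medians were 2194 nt, 3.68 TPM and -2.89. A ribosome-free minimum of 10 TPM gave 1719 nt and 8.44 TPM, limits in every replicate 2044 nt and a ratio of -2.58, and median ratios 1109 isoforms and 1835 nt. The monosome ratio was -2.42 when members were selected again after quantile normalization (1019 isoforms), -2.85 after it and -2.75 after median ratios with the members kept (both chosen after seeing the data), -2.39 with a pseudocount of 0.1 and -1.41 with 5. Members above 0 in both hippocampus libraries had a median of 13.8 TPM. The median neuropil minus somata log2 difference of 0.28 was 0.21 after quantile normalization of the fractions, 0.21 after that of the compartments, 0.18 with a pseudocount of 5 and 0 without the filter. With each library left out, members numbered 718 to 1064, and the medians were 1884 to 2040 nt, 3.64 to 6.05 TPM, -2.33 to -1.99 and 0.16 to 0.32, the lowest of the last without polysome replicate 1. No alternative of the fit changed the direction of the 4 isoforms described as widest apart between the layers. Each was at 0 in both libraries of a layer and above 0 in the other layer, so this direction was fixed in advance. Depth is unknown, and values listed at 0 have no detection limit.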

Other observations

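The limit on monosomes left out 7 isoforms that met the other limits. Their monosome means were at least 2.04 times their ribosome-free means. RSN_LD2.102_ccs_76206_1253_0_1253_1253_SUB0_pNAp_24, of 1253 nt, had the highest ratio, at 3.44, with 8.40 and 5.13 TPM in ribosome-free RNA, 21.7 and 24.9 TPM in monosome RNA and 0 in both polysome libraries. It was at 0 in both hippocampus libraries. RNN_LD4.106_sub_158556_7417_0_1963_1963_SUB0_pNAp_29, of 1963 nt, was at 13.8 and 20.7 TPM in ribosome-free and 38.3 and 51.7 TPM in monosome RNA, and at 0 in both polysome libraries.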
